A study of Mus musculus with 32 samples.

Results

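Vomeronasal receptor pseudogenes are the genes whose symbol starts with Vmn1r-ps or Vmn2r-ps. They numbered 215 of the 49671 listed genes, with 110 related to type 1 receptors (V1r) and 105 related to type 2 receptors (V2r). RNA of vomeronasal organ (VNO) epithelium was sequenced from 32 individual mice aged 42 days. The 4 inbred strains were C57/BL6 (B6), 129S6/SVEV (129), SJL/J (SJL) and SWR/J (SWR), and each was represented by 4 females and 4 males that carried no engineered allele or treatment in the labels. The paper names the 129 mice as 129Sv/J. All reads were placed on the genome of the B6 strain, only uniquely placed reads were counted, and 5106398 to 18640871 reads fell on genes per mouse. In such bulk tissue, fewer cells of a type and less RNA per cell cannot be told apart.

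The VNO is the sensory organ that detects pheromones and other chemical signals between animals. Each of its sensory neurons usually transcribes one or few receptor genes. V1r genes, whose protein is encoded by a single coding exon, are used by apical neurons with the G protein subunit Gnai2, whereas V2r genes have several coding exons and a large extracellular domain and are used by basal neurons with Gnao1. Both families grew by repeated gene duplication, which left many copies with a broken reading frame near the intact genes in the genome. Such a copy can still be transcribed, and a strain can carry an intact allele of a gene that is broken in the reference.

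The table listed 194 members as unprocessed pseudogenes, 14 as processed pseudogenes, 3 as transcribed unprocessed pseudogenes, 1 as a transcribed processed pseudogene, 2 as protein coding and 1 as lincRNA. In GENCODE M21, on the same build (GRCm38), 211 of the 215 identifiers were found. Chromosome 7 held 86 of these, chromosome 6 held 31, and chromosomes 13 and 17 held 30 each. That annotation listed Vmn2r-ps130 and Vmn2r-ps159 as protein coding and Vmn1r-ps7, Vmn2r-ps5 and Vmn2r-ps119 as polymorphic pseudogenes. In 84 members the reference transcript aligned over at least 90% of the coding sequence of the closest intact receptor. Of these, 67 held at least 1 gap that changed the frame and 51 held at least 1 stop codon in the receptor's frame. Vmn2r-ps56, Vmn2r-ps130 and Vmn2r-ps159 held neither. A single frame-changing gap without an in-frame stop was found in 18 members, and a single in-frame stop without such a gap in 14. These counts cover the aligned part only. Some of these members, such as Vmn1r-ps132 and Vmn1r-ps7, also had no start codon where the receptor starts.

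The sequences printed here are reference (B6) sequence from GENCODE M21 on GRCm38, given in the direction of transcription. They show the lesion, or its absence, in members that the strain comparisons turn on, each above its closest intact receptor, and positions count from the first base of the receptor's coding sequence. Capitals mark bases that differ between both sequences of a pair or that the other sequence lacks. Uninterrupted frames were counted from the start codon to the member's first stop and are set beside the receptor's number of codons. Where a frame-changing gap comes earlier, the codons after it are no longer in the receptor's frame. Vmn1r-ps32 (chromosome 6, 90146431 to 90155644, plus strand) aligned to Vmn1r45 with 97.17% identity and lacked 1 base at position 360, so that its frame ran uninterrupted for 121 of 318 codons.
Vmn1r-ps32: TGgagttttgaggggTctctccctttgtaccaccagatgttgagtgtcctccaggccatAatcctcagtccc
Vmn1r45: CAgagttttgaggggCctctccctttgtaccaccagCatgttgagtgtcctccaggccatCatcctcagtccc

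Vmn1r-ps27 (chromosome 6, 89802827 to 89806102, minus strand) lacked 2 bases of Vmn1r42 at position 325 and had an uninterrupted frame of 129 of 329 codons.
Vmn1r-ps27: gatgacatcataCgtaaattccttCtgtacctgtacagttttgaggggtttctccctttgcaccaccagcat
Vmn1r42: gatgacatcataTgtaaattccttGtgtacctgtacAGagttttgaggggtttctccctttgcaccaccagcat

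Vmn1r-ps14 (chromosome 6, 58046448 to 58049899, minus strand) held 1 base more than Vmn1r27 after position 487 and had an uninterrupted frame of 213 of 303 codons.
Vmn1r-ps14: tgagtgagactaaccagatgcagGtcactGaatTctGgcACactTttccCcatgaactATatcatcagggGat
Vmn1r27: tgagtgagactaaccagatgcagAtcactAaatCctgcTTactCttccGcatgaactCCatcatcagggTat

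Vmn1r-ps84 (chromosome 7, 23486375 to 23487297, minus strand) lacked 7 bases of Vmn1r177 at position 776 and had an uninterrupted frame of 261 of 309 codons.
Vmn1r-ps84: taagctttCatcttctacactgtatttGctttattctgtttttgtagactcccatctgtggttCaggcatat
Vmn1r177: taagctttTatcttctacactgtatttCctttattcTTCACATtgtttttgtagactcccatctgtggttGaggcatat

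Vmn2r-ps42 (chromosome 7, 8953109 to 8969976, minus strand) was 99.92% identical to Vmn2r42 outside a single gap of 50 bases at position 2146, which lies 492 bases from the nearest join of coding exons. Its frame ran uninterrupted for 755 of 852 codons.
Vmn2r-ps42: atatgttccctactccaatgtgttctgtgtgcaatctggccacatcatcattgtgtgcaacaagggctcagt
Vmn2r42: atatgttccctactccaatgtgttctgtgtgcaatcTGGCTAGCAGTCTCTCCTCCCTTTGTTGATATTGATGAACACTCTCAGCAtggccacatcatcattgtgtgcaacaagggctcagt

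Vmn2r-ps57 (chromosome 7, 41937527 to 41980928, minus strand) had no gap against Vmn2r59 and a single in-frame stop at codon 388, where the member has taa and the receptor caa.
Vmn2r-ps57: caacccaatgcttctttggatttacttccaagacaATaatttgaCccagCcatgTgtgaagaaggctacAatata
Vmn2r59: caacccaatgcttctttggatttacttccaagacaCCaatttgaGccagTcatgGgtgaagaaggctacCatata

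Vmn2r-ps117 (chromosome 17, 18810835 to 18841654, plus strand) had a single in-frame stop at codon 759 of the 856 codons of Vmn2r96, where the member has taa and the receptor tat.
Vmn2r-ps117: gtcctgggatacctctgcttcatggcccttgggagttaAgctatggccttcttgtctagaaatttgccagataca
Vmn2r96: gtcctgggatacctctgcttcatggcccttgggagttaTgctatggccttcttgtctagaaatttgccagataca

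Vmn2r-ps159 (chromosome 4, 156331103 to 156339499, plus strand) was open over 850 codons, against 847 in Vmn2r121 on the X chromosome, and the start of both coding sequences is shown.
Vmn2r-ps159: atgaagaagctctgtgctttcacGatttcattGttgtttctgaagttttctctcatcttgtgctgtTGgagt
Vmn2r121: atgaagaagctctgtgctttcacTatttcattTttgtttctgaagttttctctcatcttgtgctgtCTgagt

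Vmn2r-ps56 (chromosome 7, 41744706 to 41772910, minus strand) was open over all 862 codons of Vmn2r58 with no gap, and its first bases differed at 1 position.
Vmn2r-ps56: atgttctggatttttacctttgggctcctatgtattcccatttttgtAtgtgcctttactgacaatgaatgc
Vmn2r58: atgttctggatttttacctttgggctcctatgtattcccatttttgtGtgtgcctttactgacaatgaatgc

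Most members had few reads. No read was counted on 19 of the 215 (12 V1r and 7 V2r) in any mouse, and 121 had 10 or fewer reads over all 32 mice. The member with the most reads, Vmn2r-ps159, took 40.1% of the 200286 reads on members, and the top 10 took 75.8%. A filter on low counts left 49 members for testing, 17 V1r and 32 V2r, which held 98.5% of the members' reads. The other 166 had at most 194 reads in all and at most 15 in a mouse. A member could pass the filter through the strain in which it is high, so counts over the tested members are given as a description and stand for no claim about all members. Per kilobase of exon, the mean normalized level was highest for Vmn2r-ps159 (826 normalized reads per kilobase) and was 176 for Vmn2r-ps82, 154 for Vmn2r-ps53, 150 for Vmn1r-ps99 and 131 for Vmn2r-ps42.

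The number of members with any read differed between strains. In 129 mice 104 members had a read in at least 1 mouse, compared with 175 in B6, 157 in SJL and 156 in SWR. The order was the same over all 49671 listed genes. Of these, 29091 had a read in 129, compared with 42247 in B6, 40279 in SJL and 39282 in SWR. Members with a read in another strain but in none of the 8 mice of a strain numbered 92 for 129, 21 for B6, 39 for SJL and 40 for SWR. Members with at most 3 reads in every mouse of a strain and more in a mouse of another numbered 18 for 129, 25 for B6, 16 for SJL and 15 for SWR, so that by this limit 129 did not stand apart. Drawn down to the depth of the smallest library, an expected 56.7 to 63.6 members had a read in 129 mice, 58.2 to 99.0 in B6, 61.6 to 82.3 in SJL and 64.1 to 77.9 in SWR. Members with 0 reads in at least 6 of the 8 mice of a strain and a read in another numbered 118 for 129, 86 for B6, 102 for SJL and 100 for SWR. Reads on gene families of other tissues, such as keratin-associated proteins and taste receptors, were set beside these numbers. In a version chosen after seeing the data that counts protamines in place of all Prm symbols, they took 0.995 to 5.21 CPM (counts scaled to the reads on genes) in 129, 5.61 to 30.3 in B6, 2.84 to 11.7 in SJL and 1.79 to 15.9 in SWR. With all Prm symbols, which include genes that are no protamines, they took 217 to 234 CPM in 129, 216 to 250.1 in B6, 219.5 to 243 in SJL and 208 to 226 in SWR, and 129 was not low. The 2 B6 females with the highest values in the former version (30.2 and 30.3) were also the mice with the most members at equal depth (99.0 and 98.3). A B6 female at 9.38 CPM had 58.2 members. The 129 male at 5.21 CPM, the highest of its strain, had 56.7, the fewest of all mice. These last 2 mice also stood apart by gland and ciliated cell markers, which are given below. The part of this background in the low counts was not tested.

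**Figure D1:**
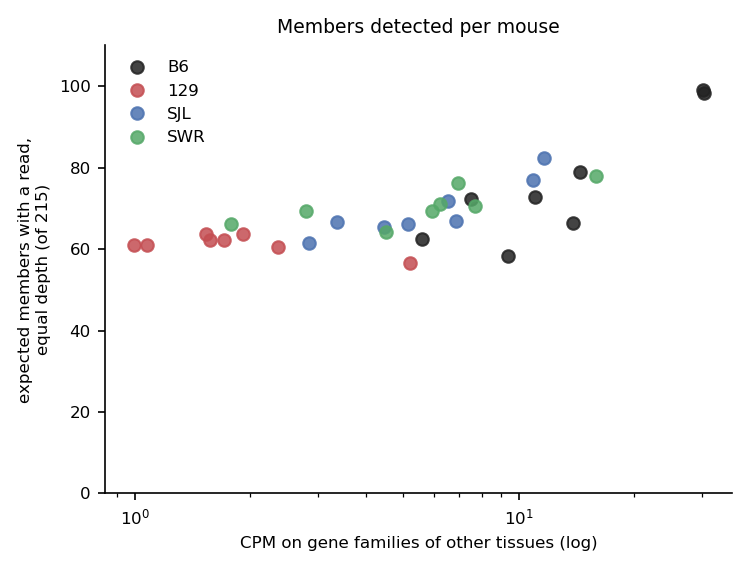
Each point is 1 mouse. The horizontal axis gives CPM on gene families of other tissues (with protamines in place of all Prm symbols) on a log scale, and the vertical axis the expected number of the 215 members with a read at the depth of the smallest library. The 8 129 mice lie between 56.7 and 63.6 members, and the 2 B6 mice with the highest background at 98.3 and 99.0.

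Between strains, 40 of the 49 tested members were differentially expressed (DE) in at least 1 of the 6 strain pairs (fold change (FC) above 2 and false discovery rate (FDR) under 0.05 in edgeR), 14 of 17 V1r and 26 of 32 V2r pseudogenes. Of all 18382 tested genes, 19.8% met this rule. By symbol, 83 of 159 tested intact V1r genes, 79 of 121 tested intact V2r genes and 4 of 5 tested formyl peptide receptor genes, a small family also used by vomeronasal neurons, met it too. Among 12 tested genes of the signalling cascade downstream of the receptors 2 did. These were Plcb2, the phospholipase of the cascade, which was higher in B6 (log2 fold change (LFC) 1.05) and SWR (LFC 1.001) than in 129, and Cnga4, an ion channel subunit, which was lower in SWR than in SJL (LFC -1.09). Cnga4 is also among the markers of olfactory sensory neurons of the main epithelium that are given below. The filter passed 22.8% of the listed pseudogenes but 75.7% of the intact V1r and 98.4% of the intact V2r genes, so the shares called are not compared. The median over tested members of the largest absolute LFC was 2.78, beside 0.44 over all tested genes. A pair of strains without overlap between mice was found for 40 tested members, where 34.4% of all tested genes had such a pair.

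Calls went in both directions in every pair. Between B6 and 129, 11 members were higher in B6 (background 8.72% of tested genes) and 16 in 129 (2.4%). This balance depended on the filter and the tool, with 35 higher in B6 and 19 in 129 without the filter on low counts, and 17 and 19 in DESeq2. Shares of all genes called were not computed for these 2 settings, so these counts stand for no claim about members. For SJL and 129 the counts were 10 higher in SJL (5.61%) and 8 in 129 (2.76%), and for SWR and 129 they were 15 higher in SWR (4.62%) and 8 in 129 (3.11%). Against B6, 14 members were higher in SJL (2.67%) and 12 lower (5.33%), while 16 were higher in SWR (2.52%) and 5 lower (5.53%). SWR exceeded SJL for 17 members (2.19%) and SJL exceeded SWR for 6 (2.31%). Of the 17, 11 were V1r pseudogenes, and the median LFC of SWR over SJL was 1.25 over the 17 tested V1r pseudogenes, 0.10 over the 32 tested V2r pseudogenes and -0.01 over all tested genes. Members called lower in 1 strain than in each of the others numbered 9 for B6 (0.827% of all tested genes), 7 for 129 (2.11%), 4 for SJL (0.473%) and 0 for SWR (0.495%). Members called higher than in each of the others numbered 3 for B6 (1.78%), 3 for 129 (0.707%), 2 for SJL (0.49%) and 8 for SWR (0.588%).

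**Figure D2:**
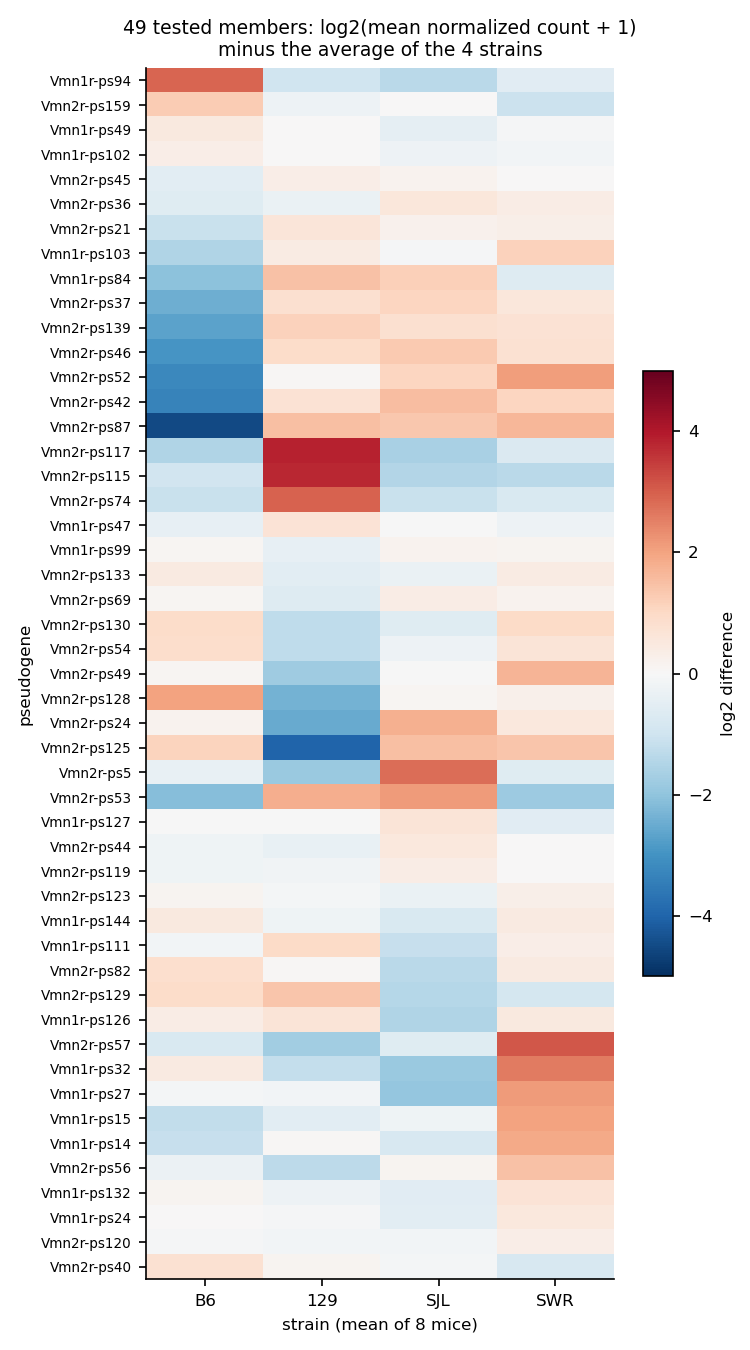
Rows are the 49 tested members and columns the 4 strains. Colour gives the log2 of the strain mean of 8 mice plus 1 minus the average of the 4 strains, with red above and blue below that average. Vmn2r-ps87 and Vmn2r-ps42 are lowest in B6, Vmn2r-ps117 is highest in 129 and Vmn2r-ps57 highest in SWR.

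Cell markers were examined before the single members. All 8 markers of mature vomeronasal neurons had reads and 0 were DE, and their summed normalized count was 42144 to 54459 in B6, 51031 to 60666 in 129, 50412 to 67026 in SWR and 50180 to 59008 in SJL. Apical neuron markers, with 0 of 3 DE, summed to 8863 to 10278 in B6 and to at least 10949 in every mouse of the other strains. Basal neuron markers, with 0 of 3 DE, had medians of 3929 in B6, 5077 in 129, 4869 in SWR and 4413 in SJL. Markers of olfactory sensory neurons of the main epithelium, of which 3 of 5 tested were DE, ranged from 2951 to 3557 in SJL and from 1829 to 2703 in the other strains. Macrophage markers, with 1 of 3 DE, summed to 489 to 742 in B6 and 270.4 to 417 in 129. Of the tested markers, 3 of 5 of red blood cells, 2 of 2 of B lymphocytes, 1 of 2 of neutrophils, 1 of 3 of bone and cartilage, 2 of 3 of ciliated cells and 0 of 2 of glands were DE. A B6 female and a 129 male stood apart by gland markers (51139 and 55260, next highest mouse 24585) and ciliated cell markers (2515 and 4110, next highest 1014). With the mean neuron marker level in the model, 40 members were called in edgeR and all 40 were shared with the calls above. Without both mice 42 were called, 39 of them shared. The part of other cell types in the strain differences was not tested.

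Vmn2r-ps159 had the highest level of all members. Its normalized counts (lowest, median and highest of 8 mice) were 4776, 5106 and 5760 in B6, 1312, 1883 and 2058 in 129, 1676, 2184 and 2728 in SJL and 907, 1003 and 1249 in SWR. Every B6 mouse lay above every mouse of the other strains, and SWR mice lay below all others. The LFC of SWR over B6 was -2.37 ± 0.09 (SE, FDR = 5.36e-21), and B6 was called above 129 (LFC 1.53) and SWR below SJL (LFC -1.115). SJL over 129 was under the FC limit (LFC 0.27, FDR = 0.0149). Vmn2r-ps159 made up 77.7% of the summed V2r pseudogene signal in B6 and 26.5% in SWR.

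The summed normalized count of all V2r pseudogenes was 6657 ± 468 (SD, n = 8) in B6, 4708 ± 584 in 129, 3795 ± 330 in SWR and 5023 ± 549 in SJL. Without Vmn2r-ps159 the order turned, with 1482 ± 135 in B6, 2917 ± 316 in 129, 2852 ± 234 in SJL, and 2790 ± 264 for SWR mice. V1r pseudogenes summed to 897 ± 87.1 in B6, 887 ± 118 in 129, 692 ± 77.1 in SJL, while SWR had 1814 ± 119, and no SWR mouse (lowest 1679) overlapped a mouse of another strain (highest 1105). As a share of all V1r and V1r pseudogene signal, they made up 4.10% in SWR and 1.67 to 2.26% in the other strains.

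Several members of chromosome 7 were lowest in B6, the strain of the reference genome. Vmn2r-ps42 had 14.0, 29.0 and 34.3 normalized reads (lowest, median, highest) in B6, 376, 438 and 523 in 129, 645, 769 and 973 in SJL and 440, 583 and 652 in SWR. The 8 B6 mice lay far below the other 24, which overlapped in part. The LFC of SJL over B6 was 4.94 ± 0.14 (FDR = 1.15e-25). Vmn2r-ps46 (chromosome 7, 8399201 to 8422775, minus strand) ranged from 5.55 to 17.1 in B6, with medians of 172 in 129, 225 in SJL and 155 in SWR, and B6 did not overlap with any strain (SJL over B6, LFC 4.29 ± 0.14, FDR = 9.99e-24). In Vmn2r-ps46 the first frame-changing gap, 2 bases against Vmn2r36, fell at a join of coding exons.

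Vmn2r-ps87 (chromosome 7, 86859326 to 86885740, plus strand) had at most 3 reads in every B6 mouse. Medians were 1.01 in B6, 149.5 in 129, 168 in SWR and 140.5 in SJL. Taking 3 reads per mouse for B6, SWR was at least 48.6-fold, 129 at least 43.6-fold and SJL at least 39.2-fold higher (FDR = 1.99e-22 for SWR over B6), while the other strains did not differ by the rule. Vmn2r-ps52 (chromosome 7, 9918252 to 9918863) was called in all 6 pairs and was the single member for which this held. It had at most 2 reads in a B6 mouse, with medians of 11.4 in 129, 25.9 in SJL and 54.7 in SWR, and SWR was at least 14.9-fold above B6. Vmn1r-ps84 had 2.19, 9.66 and 13.4 normalized reads in B6, 91.9, 111 and 149 in 129, 60.1, 97.9 and 121 in SJL and 16.8, 25.7 and 41.6 in SWR. B6 lay below SWR, and SWR below both other strains, without overlap (B6 over 129, LFC -3.58 ± 0.20, FDR = 8.96e-17).

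Vmn2r-ps53 (chromosome 7, 12445358 to 12468852, plus strand) divided the strains into pairs. Its normalized counts were 27.4, 38.0 and 60.8 in B6 and 29.2, 52.3 and 60.2 in SWR, but 531, 614 and 702 in 129 and 641, 746 and 882 in SJL. B6 and SWR overlapped and were not called (LFC 0.29, FDR = 0.0987), and 129 and SJL overlapped too. All 4 comparisons between the pairs were called, with an LFC of 4.22 ± 0.11 for SJL over B6 (FDR = 5.74e-26) and of -3.93 ± 0.11 for SWR over SJL (FDR = 1.56e-25). Its closest receptor, Vmn2r53, lies 0.094 Mb away.

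**Figure D3:**
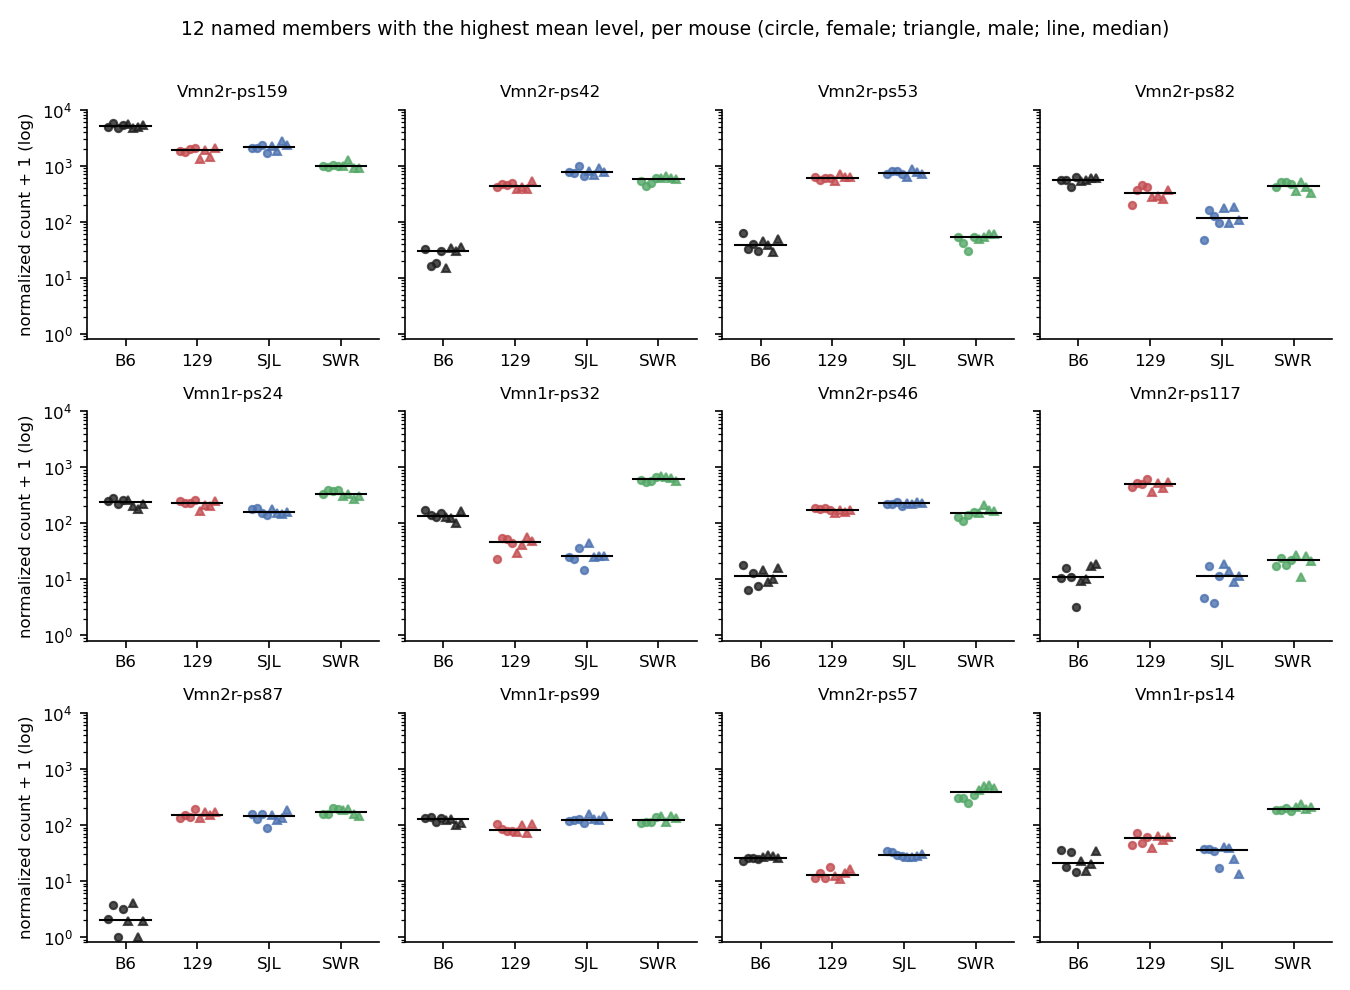
The 12 named members with the highest mean level, with 1 point per mouse (circles, females, triangles, males) and a line at the median of 8 mice. The vertical axis is the normalized count plus 1 on a log scale. Vmn2r-ps53 lies between 27.4 and 60.8 in B6 and SWR and between 531 and 882 in 129 and SJL, and Vmn2r-ps117 reaches 365 to 608 in 129 and at most 26.6 elsewhere.

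The 129 strain had 3 members above all other strains. Vmn2r-ps117 had 365, 505 and 608 normalized reads in 129, compared with medians of 9.91 in B6, 10.5 in SJL and 20.9 in SWR and no mouse above 26.6 in these strains. The LFC of SJL over 129 was -5.48 ± 0.19 (FDR = 2.99e-22). Vmn2r-ps115 ranged from 31.8 to 68.6 in 129, and no mouse of the other strains had more than 2 reads, so that 129 was at least 14.2-fold above B6, at least 17.4-fold above SJL and at least 17.8-fold above SWR. Vmn2r-ps74 ranged from 4.76 to 26.7 in 129, had 0 reads in all B6 and SJL mice and at most 1 in a SWR mouse, and was at least 4.45-fold higher in 129 than in B6. Neither Vmn2r-ps115 nor Vmn2r-ps74 was found in GENCODE M21, and their positions are not given here.

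The 7 members called lower in 129 than in each other strain were V2r pseudogenes. Vmn2r-ps125 (chromosome 17, 19986868 to 19987798, minus strand) had 1 read in 1 of the 8 129 mice and 0 in the others, with medians of 34.8 in B6, 44.9 in SJL and 45.4 in SWR. The other strains were at least 11.99-fold, 15.8-fold and 14.8-fold higher, in that order, and did not differ from each other by the rule. Vmn2r-ps24 (chromosome 5, 138532077 to 138532934), a processed pseudogene, had 0 reads in all 129 mice, 2.19 to 8.53 normalized reads in B6, 7.88 to 33.2 in SJL and 3.55 to 10.6 in SWR. SJL was called above B6 (LFC 1.74 ± 0.29, FDR = 2.17e-05), although their mice overlapped. Vmn2r-ps128 (chromosome 17, 22916878 to 22932941) had at most 2 reads in a 129 mouse and ranged from 20.3 to 46.7 in B6, above all other strains (SJL over B6, LFC -2.001 ± 0.27, FDR = 1.92e-07). Vmn2r-ps56 and Vmn2r-ps49, both on chromosome 7, were lowest in 129 with medians of 17.1 and 6.25 and highest in SWR with medians of 143 and 80.4. SWR over 129 had an LFC of 2.795 ± 0.16 for Vmn2r-ps56 (FDR = 9.65e-17) and of 3.68 ± 0.21 for Vmn2r-ps49 (FDR = 1.51e-16), with no overlap.

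SWR had 8 members above every other strain, 4 of them V1r pseudogenes of chromosome 6. Vmn1r-ps32 had 548, 612 and 694 normalized reads in SWR, 100, 136 and 170 in B6, 22.1, 46.0 and 57.2 in 129 and 13.7, 24.8 and 44.5 in SJL. SWR and B6 each stood apart from all others, while 129 and SJL overlapped. The LFC was 2.16 ± 0.12 for SWR over B6 (FDR = 2.57e-16) and 4.51 ± 0.15 for SWR over SJL (FDR = 5.51e-23). Vmn1r-ps27 in the same cluster ranged from 74.3 to 99.2 in SWR, from 10.2 to 28.5 in B6, from 5.996 to 33.2 in 129 and from 1.05 to 8.87 in SJL. SWR mice lay above all others, with an LFC of 2.35 ± 0.27 over B6 (FDR = 8.31e-09) and of 4.36 ± 0.32 over SJL (FDR = 3.71e-13). SJL was called below B6 as well (LFC -2.01 ± 0.36).

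Vmn1r-ps14 and Vmn1r-ps15 lie in another cluster of chromosome 6. Vmn1r-ps14 had medians of 194 in SWR, 20.3 in B6, 56.5 in 129 and 34.5 in SJL, and SWR (lowest 179) did not overlap with the other strains (highest 70.4), with an LFC of 3.05 ± 0.19 over B6 (FDR = 2.09e-15). Vmn1r-ps15 had medians of 119 in SWR, 11.4 in B6, 19.0 in 129 and 26.1 in SJL, with an LFC of 3.33 ± 0.23 for SWR over B6 (FDR = 2.52e-14). Vmn2r-ps57 had 245, 383 and 517 normalized reads in SWR and 21.3 to 28.5 in B6, 9.84 to 16.5 in 129 and 26.1 to 32.7 in SJL. SWR over 129 had an LFC of 4.89 ± 0.13 (FDR = 4.75e-26).

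SJL was lowest for Vmn2r-ps82 (chromosome 7, 86053289 to 86063461, minus strand), the member second to Vmn2r-ps159 in level per kilobase. It had 45.4, 116 and 183 normalized reads in SJL, 414.5, 559 and 621 in B6, 201, 329 and 453 in 129 and 323, 437 and 504 in SWR. No SJL mouse reached the lowest mouse of another strain, and the LFC of SJL over B6 was -2.17 ± 0.18 (FDR = 3.61e-12). Vmn1r-ps126 (chromosome 13, 23056683 to 23057608) ranged from 3.13 to 19.8 in SJL and from 22.4 to 83.0 in the other strains (SJL over 129, LFC -2.20 ± 0.28, FDR = 9.64e-08). Vmn2r-ps5 (chromosome 3, 64339565 to 64357724) was highest in SJL, with 20.9 to 35.5 normalized reads and at most 7 reads in a mouse of another strain (SJL over B6, LFC 3.70 ± 0.38, FDR = 6.23e-10).

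Vmn1r-ps94 (chromosome 13, 22092119 to 22092576, plus strand) was the V1r pseudogene called higher in B6 than in each other strain. It ranged from 49.03 to 77.2 in B6 and from 0.771 to 7.97 elsewhere, with an LFC of -4.74 ± 0.30 for SJL over B6 (FDR = 2.41e-15). All 458 of its exon bases lie within exons of the intact receptor gene Vmn1r188 on the same strand in GENCODE M21. Vmn1r188 had a mean of 134 normalized reads in B6 and 0 reads in all mice of the other strains. The reads were counted with Ensembl genes rather than GENCODE M21, and whether the overlap holds in that annotation was not examined. Which of both genes the reads came from was not tested.

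Other abundant members were called in few or no pairs. Vmn1r-ps24 (chromosome 6, 66752276 to 66760039, minus strand), the V1r pseudogene with the highest mean, had a median of 335 in SWR, 236 in B6, 228 in 129 and 155 in SJL. It was called in a single pair (SWR over SJL, LFC 1.04 ± 0.08, FDR = 1.21e-12), and without 1 SJL female (replicate 4) this LFC was 0.996 and fell under the limit. Vmn1r-ps99 had a median of 80.0 in 129, 122 in SWR, 123 in SJL and 124 in B6 and was not called (SJL over 129, LFC 0.56 ± 0.10, FDR = 1.47e-05). All 766 of its exon bases lie within Vmn1r191 in GENCODE M21, and this overlap was not examined in the annotation used for counting either. The other 8 tested members that were not called were Vmn1r-ps49, Vmn1r-ps102, Vmn2r-ps44, Vmn2r-ps45, Vmn2r-ps119, Vmn2r-ps120, Vmn2r-ps123 and Vmn2r-ps133. A member annotated on the Y chromosome, Vmn2r-ps139, was chosen for mention after its values were seen. It had reads in mice of both sexes, with strain means of 24.3 (129), 18.8 (SJL), 17.6 (SWR) and 0.794 (B6). Its mean in 129 was 29.4 ± 5.46 (SD, n = 4) in females and 19.2 ± 5.30 in males. Female means were 16.7 in SJL, 15.95 in SWR and 0.614 in B6, and male means 20.9, 19.3 and 0.974. Females carry no Y chromosome, so the counts in females are not a level of this Y position. Unique placement on the B6 genome thus did not fix the origin of these reads, and their origin was not tested.

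For some members the closest intact receptor went the opposite way. Vmn2r42 had a mean of 1007 normalized reads in B6 but 5.75 in 129, 10.4 in SJL and 9.10 in SWR, whereas Vmn2r-ps42 had 25.5, 439, 784 and 563. Summed per mouse, both genes together gave 1032 ± 75.0 in B6, 445 ± 52.6 in 129, 572 ± 70.5 in SWR and 794 ± 112 in SJL, so that the ratio of the highest to the lowest strain was 2.32, compared with 30.7 for the pseudogene. Of the stretches of 50 bases in Vmn2r-ps42, 96.5% occur in a transcript of another gene. Vmn2r96, the intact receptor printed beside Vmn2r-ps117, had a mean of 27.7 in 129 but 1997 in B6, 2061 in SJL and 2189 in SWR, with Vmn2r-ps117 at 490, 11.1, 10.3 and 20.01. Their sum was 518 ± 78.3 in 129 and 2008 ± 280 in B6. The sum had a ratio of 4.27 between the highest and the lowest strain, compared with 47.5 for the pseudogene. Vmn2r36 had a mean of 423 in B6 and 71.4 to 107 elsewhere, opposite to Vmn2r-ps46, and their sum had a ratio of 1.78 between the highest and the lowest strain. Other sums of opposite pairs, named after their values were seen, had a higher ratio than the pseudogene alone. These were Vmn2r-ps36 with Vmn2r40 (10.19 against 2.30), Vmn2r-ps69 with Vmn2r75 (7.14 against 2.19) and Vmn2r-ps21 with Vmn2r13 (3.98 against 3.86). For Vmn2r-ps52 with Vmn2r40 the ratio of the sum was still 20.28.

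Opposite directions were not general. The closest receptor of each of the 38 called members that had one was looked up only in the member's pair with the smallest FDR. In that pair the receptor was DE for 15, in the same direction for 6 and in the opposite direction for 9. It was not called for 23. Other pairs were not counted, and the shares of all tested genes called in each pair are given above. Intact receptors in general were called more often than that. Of 121 tested intact V2r genes, 18 were higher and 34 lower in SJL than in B6, and 15 higher and 3 lower in SWR than in SJL. Of 159 tested intact V1r genes, these numbers were 29 and 13, and 20 and 14. The 15 were not tested against these shares and stand as a description. Vmn2r121, the closest receptor of Vmn2r-ps159, was not DE in any pair (means of 2691 to 3522), nor was Vmn2r53, the neighbour of Vmn2r-ps53. Within each strain all females lay above all males for Vmn2r121, in B6 at 2885 to 3800 against 1585 to 1973. This was noted after the values were seen, and no sex test of this receptor is given here. Vmn2r53 nevertheless had 356 to 509 normalized reads in SJL and 712 to 936 in SWR, without overlap and opposite to Vmn2r-ps53, and means of 651 in B6 and 522 in 129. Vmn2r59 had means of 399 to 479 in the 4 strains, while Vmn2r-ps57 differed 30.8-fold between the highest and lowest strain mean. Vmn1r45 was DE between SWR and 129 (LFC 1.39), in the direction of Vmn1r-ps32, with means of 1109 in SWR and 421 in 129. Vmn1r45 counts among the 23 because the pair looked up was SWR over SJL, where it was not called (LFC 0.895). Whether sequence differences between strains moved reads from a receptor to a pseudogene was not tested.

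**Figure D4:**
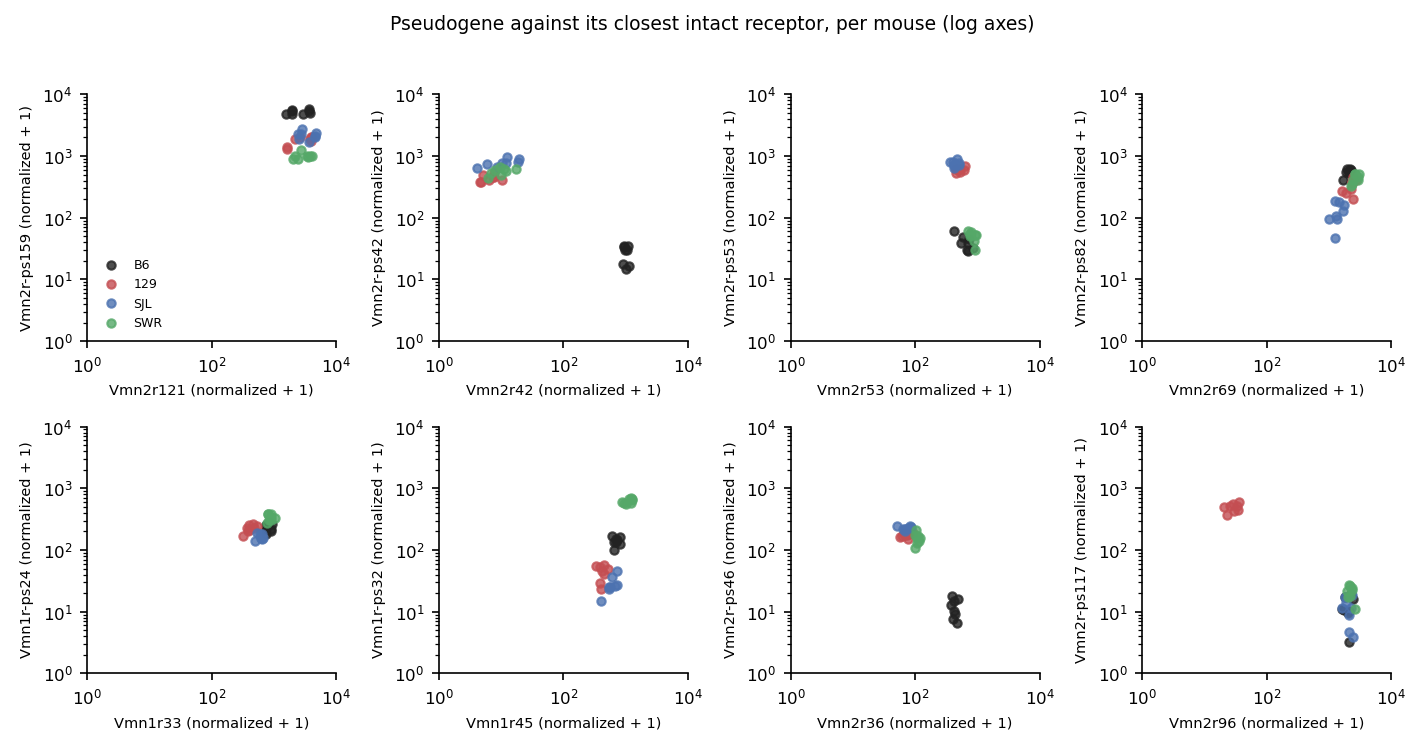
Each panel plots a member (vertical axis) against its closest intact receptor (horizontal axis), both as normalized count plus 1 on log axes, with 1 point per mouse coloured by strain. For Vmn2r-ps42 and Vmn2r-ps46 the B6 mice, and for Vmn2r-ps117 the mice other than 129, form a separate group with a high receptor and a low pseudogene, whereas for Vmn2r-ps159 the strains differ more along the vertical axis than along the horizontal axis.

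Members were also grouped by position, joining those less than 1 Mb apart into 32 clusters. On chromosome 7 from 7153687 to 13244362, 12 of 38 members were tested and 9 were called (19.8% of all tested genes), and 8 of the 12 had their lowest mean in B6 (27.5% of all tested genes). The summed mean of this stretch was 331 in B6, against 2131 in SJL, 1539 in 129 and 1178 in SWR. On chromosome 6 from 57188507 to 58504737 and from 89698719 to 90243214, all 4 tested members had their highest mean in SWR (20.2% of all tested genes), and the summed means in the latter stretch were 706 in SWR and 33.9 in SJL. On chromosome 7 from 41667979 to 42430724, all 3 tested members were lowest in 129 (28.5% of all tested genes). The 8 tested V1r pseudogenes between 22057346 and 23269474 of chromosome 13 had a mixed order, with 5 of them lowest in SJL (22.7% of all tested genes). Neighbours also resemble each other in sequence, so that they are not independent.

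Between the sexes, no member was called over the strains (FC above 2 and FDR under 0.01), where 0.0381% of all tested genes were. Under an unadjusted p of 0.05 there were 9 members, 8 of them higher in males, and DESeq2 called 0. Of all tested genes, 8.97% were under this p, 51.9% of these higher in males. The member with the lowest FDR was Vmn1r-ps47 (chromosome 7, 10278484 to 10286840, minus strand), whose reference sequence holds 7 frame-changing gaps against Vmn1r185, its closest receptor at 76.7% identity. Males had a mean of 92.9 ± 31.5 (SD, n = 16) normalized reads and females 54.6 ± 29.2, and the LFC of 0.835 ± 0.12 (FDR = 8.3e-05 in edgeR) was under the FC limit.

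Within strains, Vmn1r-ps47 was the single member called in edgeR and in DESeq2, and it was called in SWR. By both tools 0 members were called in B6 (background 0.0544%), 129 (0.0381%) and SJL (0.0544%), with 3, 2 and 6 members at an unadjusted p under 0.05 in edgeR, beside 9.14%, 7.87% and 6.64% of all tested genes. SWR females had 23.9, 26.6, 36.7 and 47.8 normalized reads and SWR males 64.7, 83.3, 88.7 and 95.6, with no overlap (LFC 1.27 ± 0.23, FDR = 0.00317 in edgeR, and 0.0816% of all tested genes called). In SJL, females had 37.7, 44.5, 48.5 and 56.8 and males 68.5, 85.7, 104 and 113, again without overlap, and the LFC of 0.99 ± 0.22 was not called (FDR = 0.0597). B6 females had 28.5, 32.0, 43.0 and 45.2 and B6 males 45.6, 61.0, 75.5 and 84.9, which did not overlap either (LFC 0.82 ± 0.24, FDR = 0.322). In 129 the sexes overlapped, with 88.1, 96.5, 106 and 112 in females and 89.8, 115, 133 and 177 in males (LFC 0.35 ± 0.20, FDR = 0.7098). Between strains, 129 was called above B6 (LFC of B6 over 129, -1.185 ± 0.17) and above SWR. With a term for the background reads, in a version chosen after seeing the data that counts protamines in place of all Prm symbols, the LFC of B6 over 129 was -0.59 (FDR = 0.0931 in edgeR) and the call ended. The neuron marker term ended it too (LFC -0.74).

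Vmn2r-ps57 also differed between the sexes in SWR, below the FC limit. SWR females had 245, 297, 299 and 341 normalized reads and SWR males 424, 458, 496 and 517 (LFC 0.67 ± 0.10, FDR = 0.000112 in edgeR). In SJL its LFC was -0.16 (FDR = 0.923 in edgeR). The interaction of sex and strain was not called for any member (FDR under 0.05, 0.0163% of all tested genes), with the lowest FDR, 0.132, for Vmn2r-ps57 and 4 members at an unadjusted p under 0.05 (8.94% of all tested genes), and DESeq2 called 0. For Vmn1r-ps47 the interaction had an FDR of 0.527, so that a difference between strains in its sex effect was not shown.

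**Figure D5:**
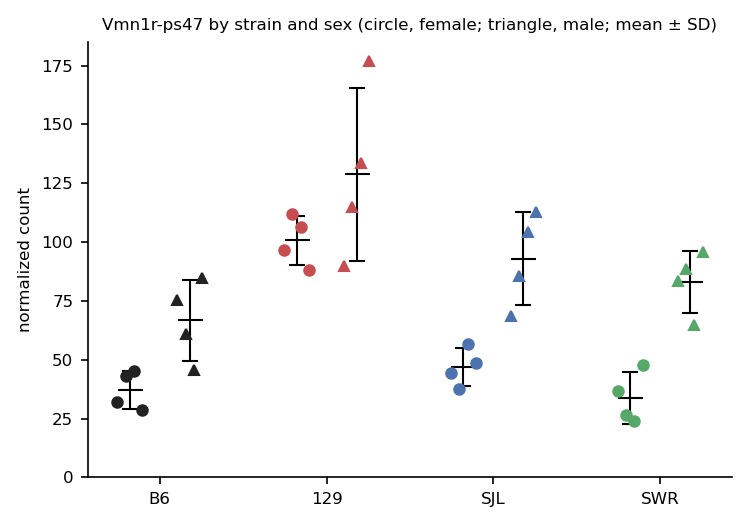
Normalized count of Vmn1r-ps47 in each mouse by strain, with circles for females, triangles for males, and bars for mean and SD of 4 mice. In B6, SJL and SWR all males lie above all females, and in 129 the sexes overlap.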

How the data were processed

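RNA-seq of vomeronasal epithelium from 32 mice was analysed. Per the labels and the study's methods, the authors trimmed 125-base read pairs with Trim Galore, aligned them with STAR 2.5.2b to mm10 with Ensembl 87 genes, counted uniquely placed pairs, and deposited raw counts per gene. The authors also deposited the normalized signal, which is these counts divided by DESeq2 size factors, and it is the normalized count given here. The median library had 11461344 reads on genes. Counts were tested in edgeR 4.0.16 (R 4.3.3, limma 3.58.1), with filterByExpr, TMM and quasi-likelihood F tests over all 32 libraries and Benjamini-Hochberg adjustment over all tested genes. Strain pairs and sexes within a strain were called at FC above 2 and FDR under 0.05, and sexes over the strains at FC above 2 and FDR under 0.01. SEs were derived as the size of the LFC over the root of its F value. Folds against a strain with at most 3 reads in every mouse used 3 reads per mouse and cover counting error only. The code was tested on simulated data. Each mouse is a replicate. Replicate numbers are the numbers 1 to 4 in the library descriptions, read as the sequencing lane, which each group shares. Same-numbered libraries deviated together no more than others (median correlation -0.013, from -0.289 to 0.477, against 0.011 for other numbers).

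Members were chosen by symbol, and members and lists were chosen with earlier results of these data known. The text names 5 members that the study discusses, the 8 V1r and 8 V2r pseudogenes with the highest mean, the 10 called members with the largest LFC whose strains do not overlap, up to 3 called higher and 3 called lower in each strain than in every other, members called between the sexes, and the closest receptors of up to 8 of them. Sequences and positions came from GENCODE M21 on GRCm38, aligned with BLAST 2.17.0+ and Biopython 1.88 (Python 3.11.15). Alternatives included DESeq2 1.42.0, other filters, covariates, a replicate block and leaving out each mouse.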

Additional observations from a re-analysis of the deposited data

Results flagged for a closer look

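Among 113 groups of 8 mice tested for a mouse far from the others, 8 had one, and chance gives about 1 in 20. In SWR, male 2 was highest for Vmn1r-ps84 (41.6 normalized reads, next 27.9), Vmn2r-ps159 (1249, next 1015) and Vmn2r-ps49 (120.1, next 89.4), and female 1 was lowest for Vmn2r-ps56 (87.7, next 131). In B6, male 3 was highest for Vmn2r-ps52 (2.03, next 0.932) and female 3 lowest for Vmn2r-ps82 (414.5, next 535). An SJL female (replicate 4) was highest for Vmn1r-ps94 (5.27, next 2.84), and a 129 female (replicate 4) had the single read on Vmn2r-ps125 in that strain (0.824 normalized reads).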

How the results depend on the processing

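Of 310 values of named members under other normalisation, filters, terms, tools or left-out mice (leaving out mice counted by the lowest and highest value), 304 kept their direction and their side of the threshold, 3 lost the call and 3 gained it, and 0 reversed. The 310 values leave out the test against a fold change of 2 and the fits of a single sex, whose lost calls are given below. Among the 310, lost calls were Vmn1r-ps24 in SWR over SJL without SJL female replicate 4 (LFC 0.996) and Vmn1r-ps47 in B6 over 129 with a background term built after seeing the data (LFC -0.59) or with the neuron marker term (LFC -0.74). Vmn1r-ps47 was called between the sexes in SJL with either term (LFC 1.032 in both), without SJL female replicate 3 (LFC 1.087) or without SJL male replicate 1 (LFC 1.116), which gave 1 call in SJL in each case. Without the filter on low counts, 74 members were called between strains (31 V1r and 43 V2r), 35 higher in B6 than in 129 and 9 higher in B6 than in SWR. DESeq2 called 59 (22 V1r) and 17 higher in B6 than in 129, and a test against a fold change of 2 called 33 (9 V1r), all shared, without Vmn1r-ps24 and Vmn1r-ps47 among others. Females alone gave 38 calls (37 shared) and males alone 37 (34 shared, without Vmn1r-ps24, Vmn1r-ps47 and Vmn2r-ps74 among others). Shares of all genes called were not computed under these other settings. Without a limit on FC there was 1 sex call over the strains (0.141% of all tested genes) and 2 in SWR (0.348%). Members at 0 in at least 6 of 8 mice numbered 118 in 129, 86 in B6, 100 in SWR and 102 in SJL, those with at most 3 reads 18 in 129, 25 in B6, 15 in SWR and 16 in SJL, and leaving out 1 mouse in turn gave 39 to 61 without a read in SJL. Without the member with the most reads, sums of V1r pseudogenes were 1476 in SWR, 530 in SJL, 663 in 129 and 663 in B6, and those of V2r pseudogenes 2790, 2852, 2917 and 1482 in that order. The cause of these changes was not tested.

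With the replicate block 41 members were called, 40 of them shared, and the block moved no count by over 1.5 times and no value of a named member across its threshold.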
